A study of Homo sapiens with 6 samples.

Results

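The genes described here are the classical, desmosomal and non-clustered cadherins of HEK 293T cells, which derive from human embryonic kidney and carry the large T antigen of SV40. They were chosen by name, as protein-coding genes of the count table with a symbol of the CDH, DSC, DSG, PCDH (followed by digits alone), FAT, DCHS or CELSR series and a largest count over the 6 libraries above 12. This gave 36 of the 30270 genes in the table, or 36 of the 24031 genes that passed the same count limit and were tested. The study compared rRNA-depleted total RNA of wild-type cells (WT, 3 libraries) with that of a TUT4 and TUT7 double knockout (ΔTUT4/7, labelled TENT3A/B knockout, 3 libraries). TUT4 and TUT7 attach uridines to the 3′ ends of RNAs. Both groups were HEK 293T cells, had no treatment and were grown in the same medium. The ΔTUT4/7 cells came from another laboratory, and whether they are 1 clone is not given in the sources used here. Nothing in the labels says that the 3 libraries of a group came from separate clones, so p-values measure only the spread between these samples.

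Cadherins are calcium-dependent adhesion proteins built from repeated extracellular domains. Classical cadherins join cells at adherens junctions and bind β-catenin and p120-catenin with their cytoplasmic tails. Desmosomal cadherins join cells at desmosomes, where their tails bind plakoglobin and plakophilins and are tied through desmoplakin to keratin filaments. Protocadherins mostly mediate weak adhesion and signalling, with many roles in the nervous system, and the giant Fat and Dachsous proteins and the seven-pass Celsr proteins take part in tissue growth and planar cell polarity, the alignment of cells within a sheet.

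The targeted genes were checked first. TUT4 stood at 212, 216 and 206 CPM (counts scaled to the TMM-adjusted library size) in WT replicates 1, 2 and 3 and at 882, 920 and 917 CPM in the ΔTUT4/7 replicates. Its count therefore rose 4.29-fold (log2 fold change 2.10 ± 0.04, SE, adjusted p = 1.05e-18), against the direction of its label. A gene-level count includes exons outside a deletion, so this value does not test the deletion itself, and the group is called here by its label. TUT7 stood at 60.4, 62.6 and 64.8 CPM in WT and at 27.2, 25.2 and 26.5 CPM in the libraries labelled ΔTUT4/7 (log2 fold change -1.25 ± 0.06, adjusted p = 2.54e-13). Every direction below is that of the libraries so labelled against WT.

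Library totals ran from 18757228 to 33148937 estimated counts, and the share of the cadherins was 0.194% to 0.207% in WT and 0.139% to 0.145% in ΔTUT4/7. All 10 genes of a marker list for this line passed the count limit, with a summed level of 1904 to 2116 CPM in WT and 1525 to 1545 CPM in ΔTUT4/7. The sum hides changes in both directions, as 4 of the 10 were called higher and 6 lower, with 1 higher and 3 lower past 2-fold. NEFM, a neurofilament gene, stood at 969 ± 123 CPM (SD, n = 3) in WT and 0.0170 ± 0.0295 CPM in ΔTUT4/7. NEFL fell from 352 ± 12.4 to 105 ± 1.34 CPM and KRT8 from 9.96 ± 2.44 to 3.43 ± 0.583 CPM. VIM rose from 496 ± 22.9 to 1250 ± 5.8 CPM. Of markers of other cells, 2 of 6 fibroblast genes (COL1A1 and COL3A1) were tested, with a summed level of 19.4 to 22.4 CPM in WT and 6.75 to 8.27 CPM in ΔTUT4/7. The other lists gave 1 of 5 endothelial genes (0.587 to 0.865 and 0.155 to 0.255 CPM), 1 of 5 leukocyte genes (1.61 to 3.06 and 1.65 to 2.3 CPM) and 2 of 6 differentiated tubule genes (7 to 10.2 and 39.0 to 44.3 CPM, most of it LRP2). PECAM1, PTPRC, UMOD and DCN, which define 4 of those cell types, did not pass the count limit or had no row. The part of these marker differences in the cadherin results was not tested, and in bulk RNA fewer cells with a transcript and less of it per cell cannot be told apart.

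As a family the cadherins were lower in ΔTUT4/7. Their summed level was 1977, 1961 and 1887 CPM in WT and 1495, 1459 and 1488 CPM in ΔTUT4/7, so the groups did not overlap. At an FDR under 0.05, 29 of the 36 genes (80.6%) were called, against 57.5% of all tested genes and 69.7% of the 14781 tested protein-coding genes. Of the 36, 23 were lower (63.9%) and 6 were higher (16.7%). The background was 29% lower and 28.5% higher over all tested genes, and 31.8% lower and 37.9% higher over protein-coding genes. At a change of 2-fold or more, 11 cadherins were lower and 4 were higher, 15 in all (41.7%). The same limit was passed by 18.3% of all tested genes (12.4% lower, 5.89% higher) and by 16.9% of protein-coding genes (10.6% lower, 6.25% higher). In 28 of the 36 genes (77.8%) the 3 values of one group all lay on one side of the other group's, 22 with ΔTUT4/7 below WT and 6 with it above. Over all tested genes this held for 62.6%, with 31.7% below and 30.9% above. The median log2 fold change of the 36 was -0.48 (quartiles -1.74 and 0.01), beside -0.02 over all tested genes and 0.05 over protein-coding genes. Their median exonic length of 9624 bases exceeded that of all tested genes (3610 bases) and of protein-coding genes (5243 bases). Their median GC content was 47.0%, beside 47.7% over all tested genes and 49.1% over protein-coding genes.

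**Figure D1:**
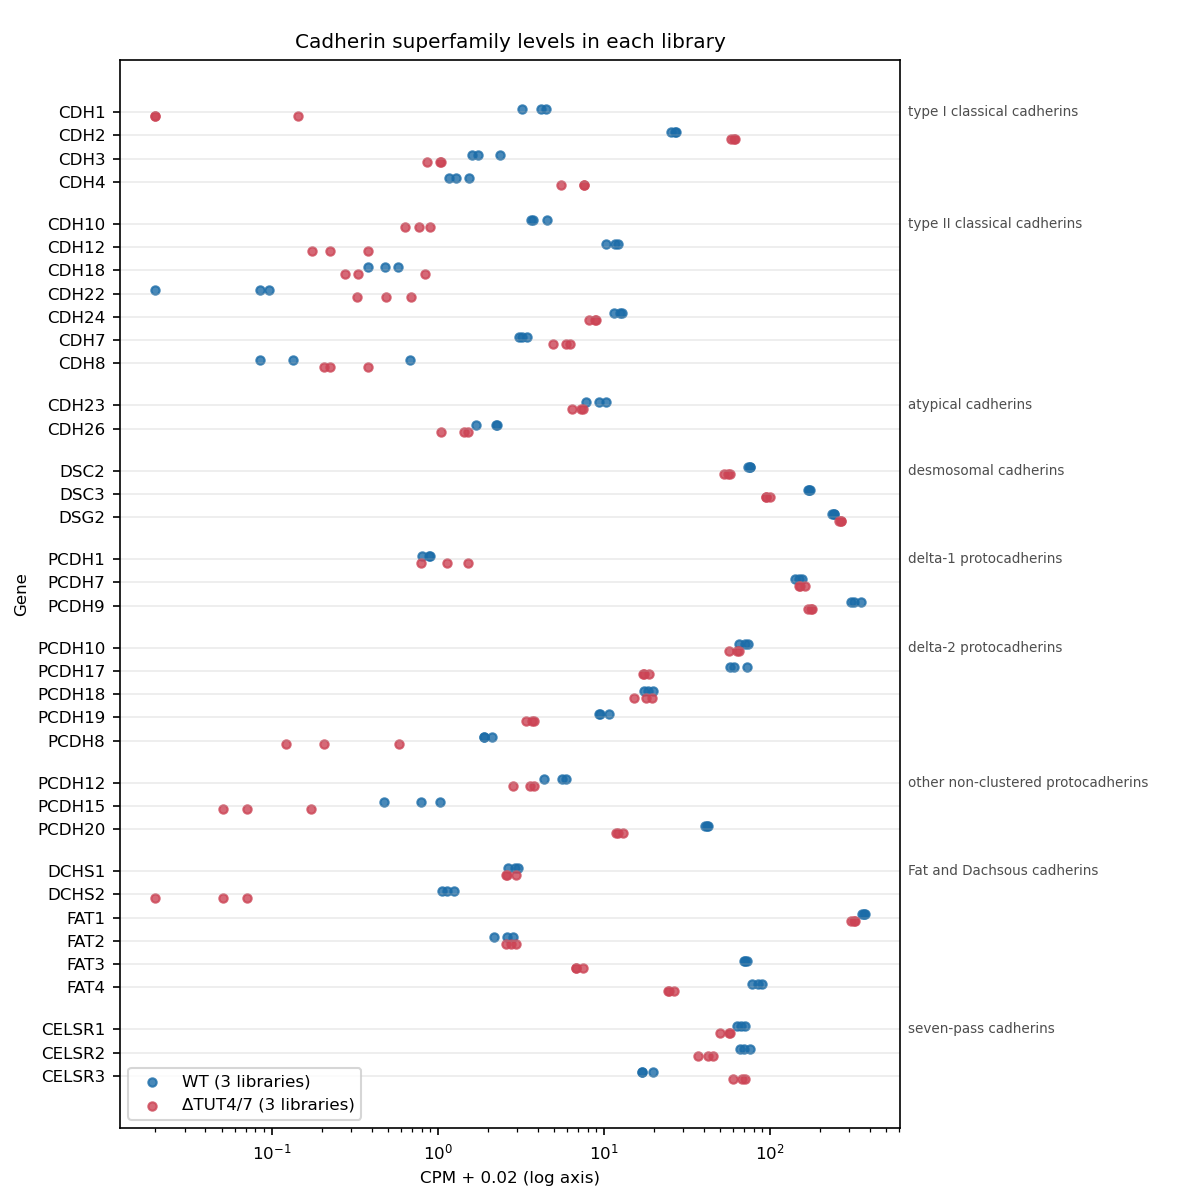
Level of each of the 36 cadherin genes in each library, as CPM + 0.02 on a log axis, with genes ordered by class, blue points for the 3 WT libraries and red points for the 3 ΔTUT4/7 libraries. CDH1, CDH12, DCHS2 and FAT3 show wide gaps between the groups, with ΔTUT4/7 below, and CELSR3, CDH2, CDH4 and CDH22 show ΔTUT4/7 above.

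**Figure D2:**
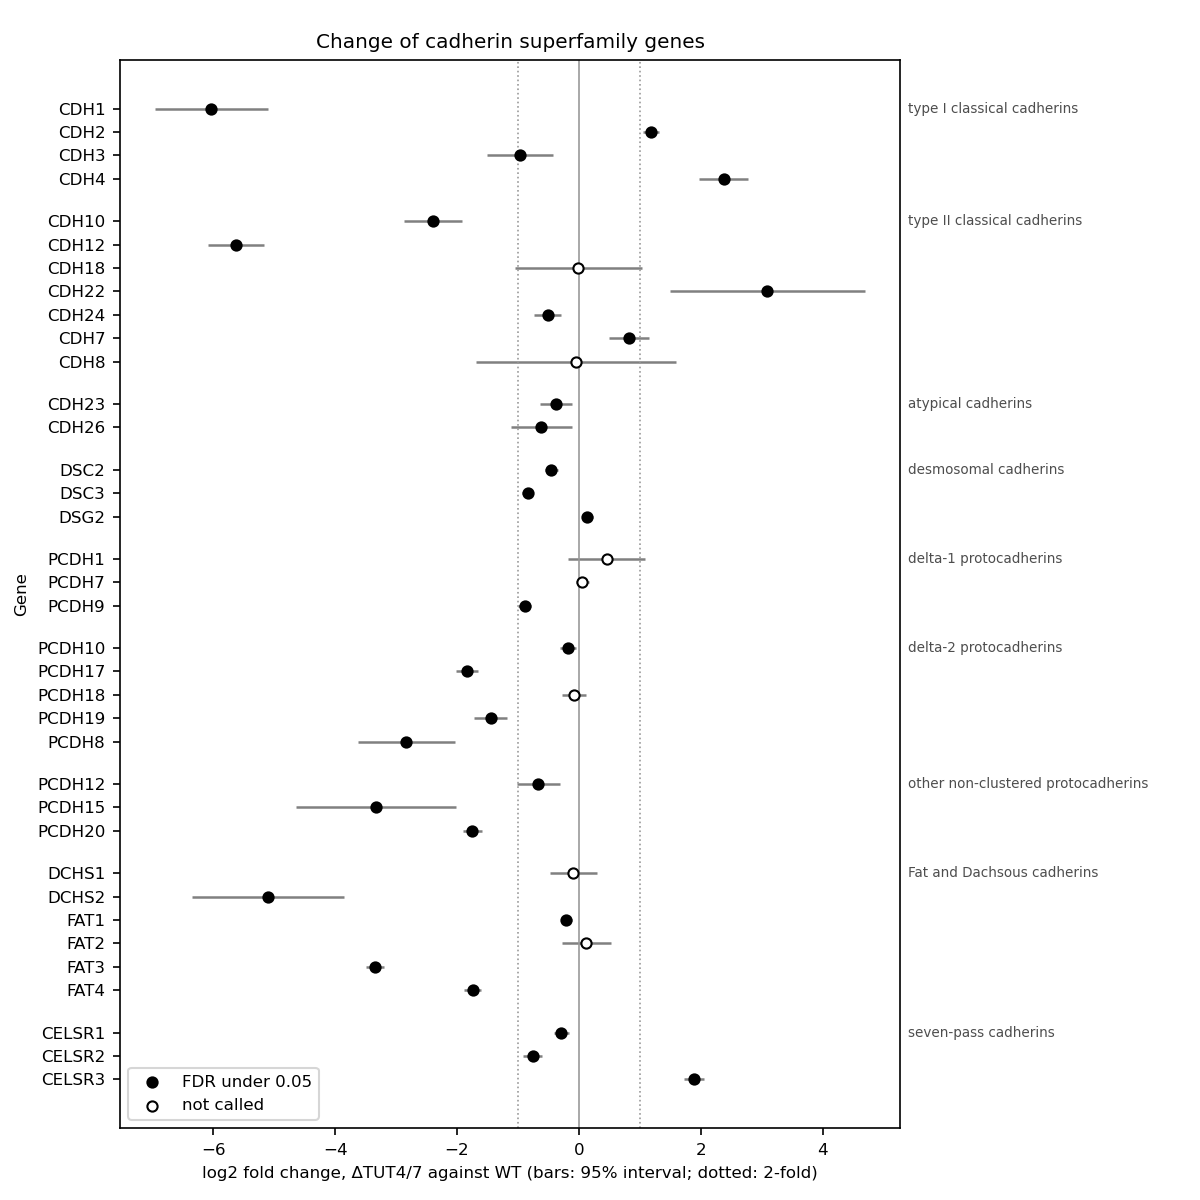
log2 fold change of each cadherin gene, ΔTUT4/7 against WT, with its 95% interval, filled where the adjusted p of edgeR's quasi-likelihood test is under 0.05 and open where it is not. Of 36 genes, 23 are filled left of 0, 6 are filled right of 0, and the dotted lines mark a 2-fold change.

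All 4 type I classical cadherins were called, with 2 higher and 2 lower. CDH1 (E-cadherin, chr16:68737292-68835541, plus strand, hg38), the classical cadherin of epithelia, stood at 3.21, 4.15 and 4.47 CPM in WT and at 0.125, 0 and 0 CPM in ΔTUT4/7. The WT libraries held 308 counts of it together and the ΔTUT4/7 libraries 4, all in replicate 1. Every ΔTUT4/7 library lay far below every WT library, and the fitted log2 fold change was -6.03 ± 0.44 (adjusted p = 2.74e-10). Its size rests on ΔTUT4/7 replicate 1: without it the fitted value was -9.52 (adjusted p = 6.79e-10) against libraries at 0, where a floor of 3 counts over both gives a level at least 52.3-fold lower. CDH2 (N-cadherin, chr18:27932879-28177946, minus strand), the classical cadherin of neural and mesenchymal cells, moved the other way. It stood at 27.1, 26.8 and 25.5 CPM in WT and at 58.3, 61.6 and 60.9 CPM in ΔTUT4/7, a 2.28-fold rise that separated the groups (log2 fold change 1.19 ± 0.06, adjusted p = 4.83e-13). Per kilobase of exon, CDH2 passed from rank 15 of the 36 in WT (3.08 CPM per kb) to rank 5 in ΔTUT4/7 (7.02 CPM per kb), and CDH1 from rank 22 to rank 34. CDH2 was thus the more abundant of the pair in both groups, 4.05 to 5.99 times the per-kilobase level of CDH1 in the WT libraries.

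CDH4 (R-cadherin, chr20:61252261-61940617, plus strand), a cadherin named after the retina, rose with CDH2. Its levels were 1.27, 1.15 and 1.53 CPM in WT and 7.61, 7.58 and 5.52 CPM in ΔTUT4/7 (log2 fold change 2.38 ± 0.19, adjusted p = 6.02e-10). CDH3 (P-cadherin), which lies next to CDH1 on chromosome 16, fell less than CDH1. It stood at 2.34, 1.73 and 1.60 CPM in WT and at 0.843, 1.03 and 1.02 CPM in ΔTUT4/7, with no overlap (log2 fold change -0.97 ± 0.26, adjusted p = 0.00324). The summed level of the type I class was 33.6 ± 0.440 CPM in WT and 68.1 ± 1.78 CPM in ΔTUT4/7, most of it CDH2.

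Of the 7 type II classical cadherins, which are mainly known from the nervous system, 3 were lower, 2 were higher and 2 were not called. CDH12 (N-cadherin 2, chr5:21750673-22853344, minus strand), known from the brain, had the widest gap of the class. It stood at 10.3, 12.1 and 11.7 CPM in WT and at 0.156, 0.361 and 0.204 CPM in ΔTUT4/7, that is 876 against 16 counts (log2 fold change -5.62 ± 0.22, adjusted p = 9.54e-15). CDH12 went from rank 17 to rank 32 of the 36 per kilobase. A processed pseudogene on the opposite strand inside CDH12, HSPD1P1, held 8002 counts in WT and 14286 in ΔTUT4/7. Without a stated read strand, reads of the 1726 bases that the 2 share cannot be told apart. The counts of the 2 moved in opposite directions. CDH10, a brain cadherin further along chromosome 5, was also lower. Its levels were 4.53, 3.73 and 3.65 CPM in WT and 0.749, 0.876 and 0.613 CPM in ΔTUT4/7 (log2 fold change -2.40 ± 0.23, adjusted p = 1.05e-08). CDH18, the third cadherin of that stretch, was low in both groups, at 0.255 to 0.825 CPM, and was not called (adjusted p = 0.991).

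CDH24 stood at 12.9, 11.5 and 12.6 CPM in WT and at 8.92, 8.09 and 8.79 CPM in ΔTUT4/7, a smaller fall without overlap (log2 fold change -0.51 ± 0.10, adjusted p = 0.00024). CDH7, in contrast, was higher in each ΔTUT4/7 library, with 3.05, 3.42 and 3.20 CPM in WT and 5.93, 4.90 and 6.28 CPM in ΔTUT4/7 (log2 fold change 0.82 ± 0.15, adjusted p = 0.000104). CDH22 was called higher on few reads, 4 counts in WT and 34 in ΔTUT4/7, or 0, 0.0769 and 0.0652 CPM against 0.468, 0.670 and 0.306 CPM (log2 fold change 3.09 ± 0.77, adjusted p = 0.00161). CDH8, at 0.0652 to 0.662 CPM in the 6 libraries, was not called (adjusted p = 0.964), with a 95% interval from -1.69 to 1.60 on the log2 scale. CDH8 was also the gene nearest the count limit on its upper side, with a largest count of 13.2. On its other side lay DSC1 (largest count 12), CDH11 (10), CDH15 (7) and CDH13 (5). CDH5, CDH6, CDH9, CDH16, CDH17, CDH19, CDH20, DSG1, DSG3 and DSG4 were not analysed here. The summed level of the type II class was 31.7 ± 0.371 CPM in WT and 16.5 ± 0.35 CPM in ΔTUT4/7.

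Both atypical cadherins in the set were lower, by less than 2-fold. CDH23, which with PCDH15 forms the tip links of hair cells, stood at 7.79, 9.34 and 10.3 CPM in WT and at 7.33, 6.44 and 7.51 CPM in ΔTUT4/7 (log2 fold change -0.37 ± 0.13, adjusted p = 0.0157). The groups came close, with WT replicate 1 just above the ΔTUT4/7 values, and the call was lost without WT replicate 3 (adjusted p = 0.0951) or ΔTUT4/7 replicate 2 (adjusted p = 0.0696). CDH26 stood at 2.24, 1.69 and 2.25 CPM in WT and at 1.5, 1.03 and 1.43 CPM in ΔTUT4/7 (log2 fold change -0.62 ± 0.24, adjusted p = 0.0320). That call was lost with DESeq2 (adjusted p = 0.110), with the offset for GC content and length (0.0599), and without WT replicate 1 (0.0786), WT replicate 3 (0.102) or ΔTUT4/7 replicate 2 (0.126).

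The 3 desmosomal cadherins, which lie within 3.62 Mb of chromosome 18 together with CDH2, were among the most abundant of the family and did not move together. DSC3 (desmocollin 3) stood at 173, 175 and 171 CPM in WT and at 94.6, 99.6 and 95.3 CPM in ΔTUT4/7, a fall that kept the groups well apart (log2 fold change -0.84 ± 0.05, adjusted p = 1e-12). Its neighbour DSC2 (desmocollin 2), the desmocollin of most epithelia and of the heart, stood at 76.4, 76.4 and 74.4 CPM in WT and at 53.3, 57.7 and 55.7 CPM in ΔTUT4/7 (log2 fold change -0.45 ± 0.05, adjusted p = 2.55e-07). DSG2 (desmoglein 2), the desmoglein they pair with across desmosomes, was slightly higher. It stood at 245, 242 and 238 CPM in WT and at 269, 261 and 270 CPM in ΔTUT4/7 (log2 fold change 0.14 ± 0.04, adjusted p = 0.00601). The call did not hold under other settings. With library size alone the value was 0.03 (adjusted p = 0.629), with upper-quartile factors 0.04 (0.416), with limma on log2(CPM + 1) 0.03 (0.627) and with a mean count of at least 50 it was 0.08 (0.110).

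Per kilobase of exon, DSG2 was the first of the 36 genes in both groups (25.5 and 28.1 CPM per kb) and DSC3 the third (22.5 and 12.5 CPM per kb). The ratio of DSC3 to DSG2 per kilobase was 0.872, 0.891 and 0.887 in WT and 0.434, 0.471 and 0.434 in ΔTUT4/7. This ratio is taken within a library and so does not depend on the scaling between libraries. The class as a whole went from 491 ± 5.93 to 419 ± 2.48 CPM.

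The windows from 250 bases before to 50 bases after the annotated start of these 3 genes are shown because the neighbours differed in their change (RefSeq, GRCh38.p14, 5′ to 3′ on the strand of the gene, start at DSC3 chr18:31042693-31042992 minus, DSC2 chr18:31102372-31102671 minus, DSG2 chr18:31497927-31498226 plus). Capitals mark the E-box CACCTG or CAGGTG and the GC box GGGCGG or CCGCCC, which were searched on both strands and did not overlap each other.
DSC3: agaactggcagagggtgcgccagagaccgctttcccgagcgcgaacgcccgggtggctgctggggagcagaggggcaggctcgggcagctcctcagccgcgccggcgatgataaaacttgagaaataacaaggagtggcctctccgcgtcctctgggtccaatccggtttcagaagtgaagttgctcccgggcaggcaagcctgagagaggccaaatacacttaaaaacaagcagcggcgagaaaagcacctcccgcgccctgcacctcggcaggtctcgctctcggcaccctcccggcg
DSC2: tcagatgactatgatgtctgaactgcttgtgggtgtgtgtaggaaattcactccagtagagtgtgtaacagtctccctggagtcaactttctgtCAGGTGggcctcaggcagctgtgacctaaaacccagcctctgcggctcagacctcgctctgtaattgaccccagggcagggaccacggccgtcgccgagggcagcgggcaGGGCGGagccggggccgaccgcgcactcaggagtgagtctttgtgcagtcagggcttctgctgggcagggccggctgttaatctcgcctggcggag
DSG2: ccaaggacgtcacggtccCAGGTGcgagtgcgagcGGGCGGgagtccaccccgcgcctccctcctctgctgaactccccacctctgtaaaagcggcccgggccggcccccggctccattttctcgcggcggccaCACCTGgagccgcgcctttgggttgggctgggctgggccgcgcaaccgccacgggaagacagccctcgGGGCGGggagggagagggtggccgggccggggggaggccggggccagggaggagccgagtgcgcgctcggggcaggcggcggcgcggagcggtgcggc

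The DSC3 window held neither motif, the DSC2 window held 1 E-box and 1 GC box, and the DSG2 window held 2 of each. The E-box was present in 20.6% and the GC box in 45.0% of the 35116 windows of that length in the RefSeq table. A window was matched for 26 of the 36 cadherins, of which 4 held the E-box (15.4%) and 14 the GC box (53.8%). Some matched windows lay far from the start of the counted gene: 247160 bases for CDH4, 22387 for FAT2, 11539 for PCDH12 and 9619 for PCDH1. CDH4 and PCDH1 were among the 4 with the E-box. CDH1 was among those without an entry. These matches describe letters, not binding.

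Of the 3 delta-1 protocadherins that met the symbol rule, adhesion proteins with 1 more cadherin repeat than the delta-2 group, PCDH9 alone was called. PCDH9 stood at 320, 356 and 307 CPM in WT and at 180, 178 and 171 CPM in ΔTUT4/7 (log2 fold change -0.89 ± 0.05, adjusted p = 5.5e-12), all 3 values well below WT. PCDH7 was near PCDH9 per kilobase in WT (11.5 and 10.6 CPM per kb) and above it in ΔTUT4/7 (12 and 5.7 CPM per kb). It stood at 156, 149 and 141 CPM in WT and 152, 164 and 149 CPM in ΔTUT4/7. The PCDH7 groups overlapped, and its log2 fold change of 0.06 had a 95% interval from -0.04 to 0.17 (adjusted p = 0.298). PCDH1 was low, at 0.865, 0.884 and 0.783 CPM in WT and 1.5, 0.773 and 1.12 CPM in ΔTUT4/7, and its groups overlapped (log2 fold change 0.46 ± 0.30, adjusted p = 0.204).

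Of the 5 delta-2 protocadherins, a subfamily known from neural circuit formation and from interaction with the WAVE actin regulators, 4 were lower. PCDH17 stood at 72.4, 61.1 and 57.3 CPM in WT and at 17.4, 18.8 and 17.2 CPM in ΔTUT4/7, with a wide gap between the groups (log2 fold change -1.84 ± 0.08, adjusted p = 1.47e-12). PCDH19, the X-linked gene mutated in a childhood epilepsy, stood at 9.52, 9.34 and 10.8 CPM in WT and at 3.68, 3.40 and 3.78 CPM in ΔTUT4/7 (log2 fold change -1.45 ± 0.13, adjusted p = 4.39e-09). PCDH8 was low in WT and lower still in ΔTUT4/7, at 1.88, 1.88 and 2.12 against 0.187, 0.103 and 0.562 CPM (log2 fold change -2.84 ± 0.38, adjusted p = 1.64e-06, and -3.63 without ΔTUT4/7 replicate 3).

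PCDH10 stood at 74.4, 65.3 and 71.1 CPM in WT and at 63.4, 56.5 and 65.3 CPM in ΔTUT4/7, and its groups overlapped although it was called (log2 fold change -0.18 ± 0.06, adjusted p = 0.0161). Its call was lost without WT replicate 1 (adjusted p = 0.0705), without ΔTUT4/7 replicate 2 (0.101) and with the GC content and length offset (log2 fold change -0.04, adjusted p = 0.597). PCDH18 stood at 19.7, 18.5 and 17.5 CPM in WT and at 17.9, 15.3 and 19.4 CPM in ΔTUT4/7. It was the member of the class that was not called (adjusted p = 0.505), with a 95% interval from -0.27 to 0.12.

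The 3 remaining non-clustered protocadherins of the set were all lower. PCDH20 stood at 41.7, 40.7 and 42.6 CPM in WT and at 13.1, 12.2 and 11.8 CPM in ΔTUT4/7 (log2 fold change -1.75 ± 0.07, adjusted p = 2.49e-14), and it went from rank 6 to rank 13 per kilobase. PCDH12, which is known from endothelium, stood at 4.33, 5.92 and 5.61 CPM in WT and at 2.84, 3.76 and 3.58 CPM in ΔTUT4/7 (log2 fold change -0.67 ± 0.17, adjusted p = 0.00191). It shares 11414 bases with RNF14 on the opposite strand, which held 4033 counts in WT and 4218 in ΔTUT4/7. PCDH15, the partner of CDH23 in tip links, was near the floor, with 60 counts in WT and 5 in ΔTUT4/7. Its levels of 0.458, 0.769 and 1.01 CPM in WT lay above 0.0312, 0.0516 and 0.153 CPM in ΔTUT4/7 (log2 fold change -3.33 ± 0.63, adjusted p = 0.00011, and -4.13 without ΔTUT4/7 replicate 3).

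The Fat and Dachsous cadherins, giant proteins of which Dachsous is a ligand of Fat, had 4 members lower, none higher and 2 not called. FAT3 (chr11:92352096-92896470, plus strand), known from retina and brain, stood at 70.5, 73.0 and 69.7 CPM in WT and at 6.77, 6.75 and 7.46 CPM in ΔTUT4/7. With a 10.2-fold fall and 5421 against 494 counts, it had the smallest adjusted p of the 36 (log2 fold change -3.35 ± 0.07, adjusted p = 1.29e-18). FAT4, the Fat protein that binds Dachsous 1, stood at 89.4, 85.2 and 78.3 CPM in WT and at 24.6, 24.5 and 26.4 CPM in ΔTUT4/7 (log2 fold change -1.74 ± 0.06, adjusted p = 2.46e-15). FAT1 took the most counts of the 36 in both groups, at 372, 371 and 361 CPM in WT and at 322, 309 and 325 CPM in ΔTUT4/7, a fall of 1.15-fold without overlap (log2 fold change -0.21 ± 0.04, adjusted p = 0.000255). That fall was not called with the GC content and length offset (log2 fold change -0.05, adjusted p = 0.193).

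DCHS2, the less studied of the Dachsous pair, stood at 1.12, 1.04 and 1.24 CPM in WT and at 0.0312, 0 and 0.0511 CPM in ΔTUT4/7. Its 87 counts in WT and 2 in ΔTUT4/7 gave a depth-adjusted ratio of 40.4 with a 95% counting interval from 10.8 to 339 (adjusted p = 2.2e-07), which covers counting error only. DCHS1, the ligand of FAT4, stood at 2.65, 3.04 and 2.90 CPM in WT and at 2.93, 2.58 and 2.55 CPM in ΔTUT4/7, and the groups overlapped (log2 fold change -0.09 ± 0.18, adjusted p = 0.717, 95% interval -0.47 to 0.30). FAT2 also overlapped, at 2.60, 2.81 and 2.18 CPM in WT and 2.75, 2.94 and 2.55 CPM in ΔTUT4/7 (adjusted p = 0.607). In the class sum, which went from 530 ± 12.9 to 357 ± 9.31 CPM, the ratio of FAT4 to FAT1 per kilobase was 0.182, 0.175 and 0.165 in WT and 0.0579, 0.0603 and 0.0616 in ΔTUT4/7.

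All 3 seven-pass cadherins were called, 2 lower and 1 higher, so the class sum hardly moved (156 ± 9.60 CPM in WT and 163 ± 13.5 CPM in ΔTUT4/7). These adhesion receptors, relatives of a Drosophila protein of planar polarity, share the same domain layout. CELSR3 (chr3:48636463-48662886, minus strand), known from axon tract formation, stood at 19.9, 17.1 and 17.1 CPM in WT and at 70.9, 60.4 and 67.6 CPM in ΔTUT4/7 (log2 fold change 1.89 ± 0.08, adjusted p = 1.41e-14). CELSR2 (chr1:109249539-109275751, plus strand) stood at 75.7, 66.5 and 70.4 CPM in WT and at 45.4, 37.1 and 42.2 CPM in ΔTUT4/7 (log2 fold change -0.76 ± 0.07, adjusted p = 2.01e-08). CELSR1 stood at 70.8, 63.7 and 66.7 CPM in WT and at 57.5, 50.2 and 56.8 CPM in ΔTUT4/7 (log2 fold change -0.29 ± 0.06, adjusted p = 0.000395). The order of the 3 was thus turned around: CELSR3 was the least abundant per kilobase in WT (rank 18 of 36) and the most abundant in ΔTUT4/7 (rank 8). The ratio of CELSR3 to CELSR2 per kilobase was 0.243, 0.238 and 0.225 in WT and 1.45, 1.51 and 1.48 in ΔTUT4/7, and that of CELSR3 to CELSR1 was 0.325, 0.311 and 0.296 and then 1.43, 1.40 and 1.38.

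The start windows of CELSR2 and CELSR3 are shown because these paralogs moved in opposite directions (RefSeq, GRCh38.p14, CELSR2 chr1:109249289-109249588 plus, CELSR3 chr3:48662837-48663136 minus, capitals as above).
CELSR2: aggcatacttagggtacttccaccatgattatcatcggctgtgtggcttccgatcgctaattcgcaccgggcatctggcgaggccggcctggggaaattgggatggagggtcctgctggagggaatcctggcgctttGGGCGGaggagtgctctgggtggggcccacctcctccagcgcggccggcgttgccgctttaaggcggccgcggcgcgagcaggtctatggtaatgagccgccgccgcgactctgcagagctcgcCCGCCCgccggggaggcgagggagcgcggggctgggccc
CELSR3: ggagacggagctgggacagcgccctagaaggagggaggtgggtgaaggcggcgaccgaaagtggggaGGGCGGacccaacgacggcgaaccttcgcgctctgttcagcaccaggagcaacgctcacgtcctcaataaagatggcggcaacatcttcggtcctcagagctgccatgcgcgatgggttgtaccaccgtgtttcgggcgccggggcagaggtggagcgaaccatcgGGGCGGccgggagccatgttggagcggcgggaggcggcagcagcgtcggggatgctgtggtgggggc

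Each of the 2 windows held 2 GC boxes, no E-box and 30 CG dinucleotides, so none of the counted letters separated them.

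**Figure D3:**
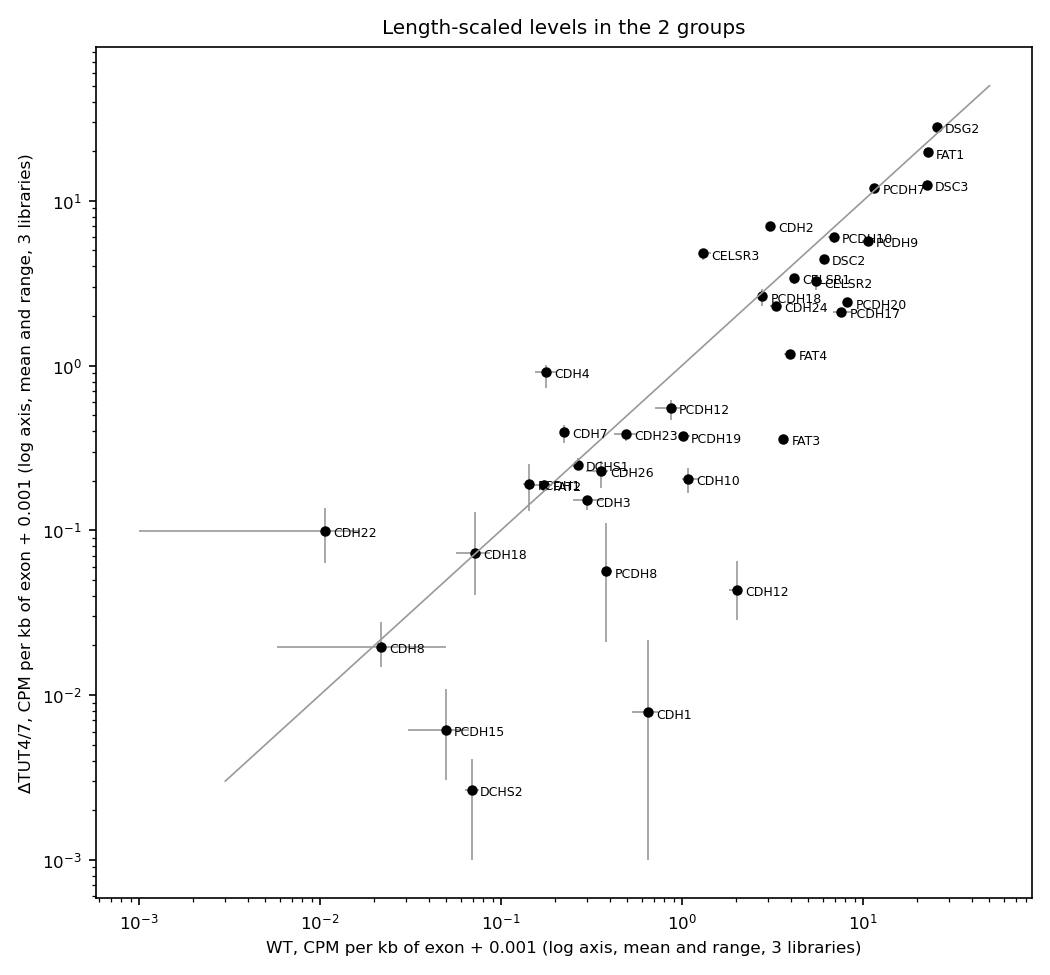
Mean level of each of the 36 genes per kilobase of exon, + 0.001, in WT (x axis) and ΔTUT4/7 (y axis), both log axes, with lines for the range of the 3 libraries and a diagonal of equal level. DSG2, FAT1, DSC3 and PCDH7 hold ranks 1 to 4 in both groups, CDH2 and CELSR3 lie above the diagonal, and CDH12 and CDH1 lie far below it.

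Several cadherins lie in groups on 1 chromosome, so each change was set beside the median log2 fold change of the nearest tested genes with a mean count of at least 50, 10 on each side. On chromosome 13, PCDH8, PCDH17, PCDH20 and PCDH9 lie within 14.4 Mb and all 4 were lower, and so were their neighbours, with medians of -0.93, -0.91, -0.83 and -0.51. Relative to those neighbours the 4 values were -1.91, -0.93, -0.91 and -0.38. The neighbours of each gene spanned 20.6 to 22.9 Mb, more than the stretch that holds the 4 genes. The 4 medians are therefore not separate backgrounds. Only the gene itself was left out, so other cadherins with a mean count of at least 50 could be among its neighbours. FAT4 on chromosome 4 had a neighbour median of -0.81 and a value relative to it of -0.94. PCDH7, also on chromosome 4, did not fall with its surroundings, where 19 of 20 neighbours were below 0 (median -0.73).

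DCHS2, on the same chromosome, also had mostly lower neighbours (median -0.54, 17 of 20 below 0) and stood at -4.56 relative to them. Some of the large falls stood among neighbours above 0. The neighbour medians were 0.13 for CDH1, 0.18 for FAT3, 0.49 for CDH12 and CDH10, and 0.37 for PCDH15. CELSR3 and CDH4 rose among rising neighbours (medians 0.50 and 0.61) and stood at 1.39 and 1.77 relative to them. All 15 genes past 2-fold kept their direction relative to their neighbours, and 12 of them stayed past 2-fold. The exceptions were PCDH17, PCDH20 and FAT4. Whether copy number differed between the 2 lines was not tested.

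**Figure D4:**
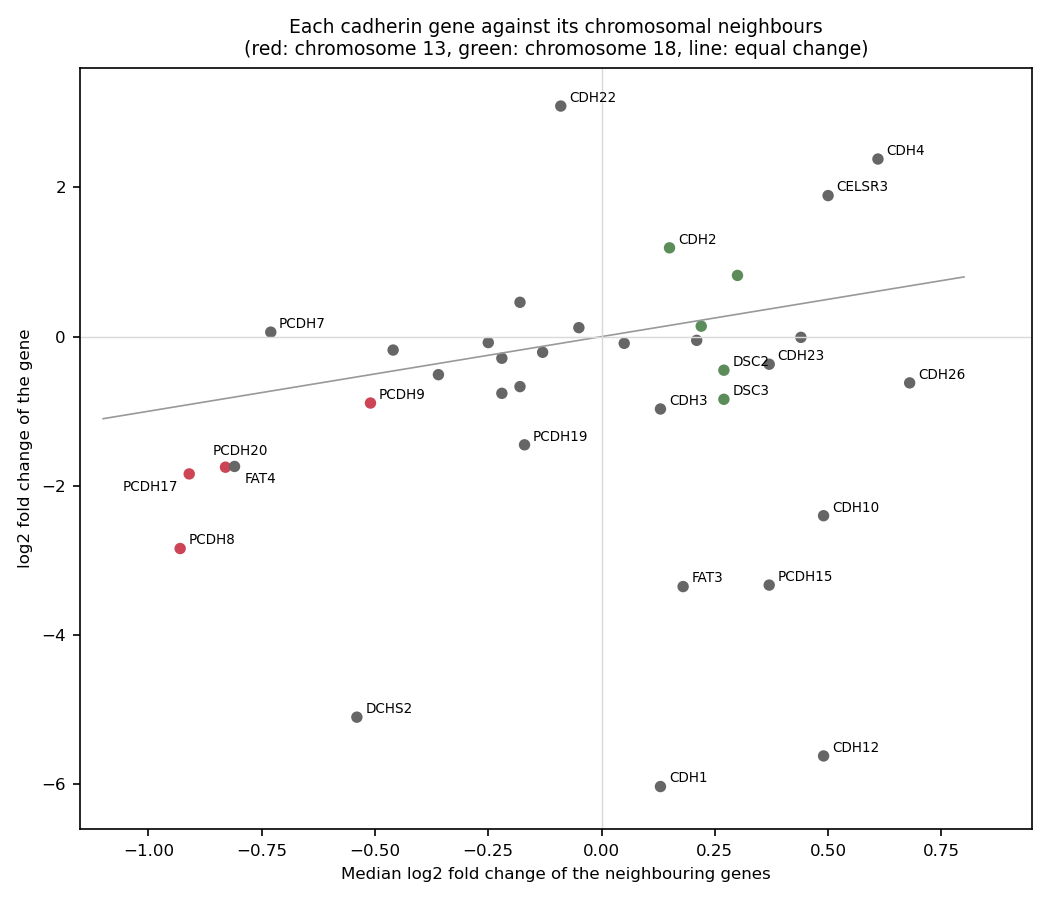
log2 fold change of each cadherin gene (y axis) against the median log2 fold change of its chromosomal neighbours (x axis), with a line of equal change, chromosome 13 in red and chromosome 18 in green. The 4 red points and FAT4 lie at negative values on both axes, and CDH1, CDH12, FAT3 and CDH10 fall far below the line beside neighbours above 0.

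The proteins that cadherins work with were counted from lists written from general knowledge of the pathway. Over all lists, 78 of 88 genes were tested, with a median log2 fold change of 0.03. Of these, 34 were higher and 27 lower at an FDR under 0.05, or 43.6% and 34.6% of those tested. The shares were 37.9% and 31.8% over tested protein-coding genes, and 28.5% and 29% over all tested genes. The counts of single lists below have the same background. The balance of the 2 directions turned with the scaling: there were 24 higher and 31 lower with library size alone and with limma on log2(CPM + 1), and 26 higher and 30 lower with upper-quartile factors. Past 2-fold there were 4 higher (5.13%) and 8 lower (10.3%), shares near those of all protein-coding genes (6.25% and 10.6%).

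Of the adherens junction list, 18 of 20 genes were tested, with 10 higher, 6 lower and a median of 0.18. CTNNB1 (β-catenin), which binds classical cadherin tails and also carries Wnt signals, had the highest CPM of the list and stood at 381, 399 and 355 CPM in WT and at 660, 668 and 683 CPM in ΔTUT4/7 (log2 fold change 0.83 ± 0.05, adjusted p = 2.24e-12). NECTIN4 (4.23 ± 0.383 CPM in WT, 0.141 ± 0.122 CPM in ΔTUT4/7), an epithelial nectin, fell by 4.74 on the log2 scale, while NECTIN1 rose by 1.36 (12.3 ± 0.911 and 31.7 ± 0.369 CPM). PLEKHA7, a p120-catenin partner, rose by 1.43, and CTNNA3, an α-catenin of heart and testis, fell by 2.04 from 1.44 ± 0.163 to 0.341 ± 0.0772 CPM.

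Of the desmosome list, 5 of 9 genes were tested, with 1 higher, 3 lower and a median of -0.28. DSP (desmoplakin), which ties desmosomes to keratin filaments, stood at 255, 252 and 268 CPM in WT and at 259, 247 and 266 CPM in ΔTUT4/7, overlapping in full (log2 fold change -0.01 ± 0.04, adjusted p = 0.927). PKP2 (plakophilin 2), a plaque protein that binds desmosomal cadherins, stood at 11.8, 12.1 and 12.1 CPM in WT and at 35.4, 33.6 and 31.8 CPM in ΔTUT4/7 (log2 fold change 1.49 ± 0.08, adjusted p = 8.48e-13). DSP was called lower with library size alone (-0.12, adjusted p = 0.028) and with limma on log2(CPM + 1) (-0.12, 0.0265), and higher with the GC content and length offset (0.11, 0.0115). PKP2 and DSC3 changed in opposite directions.

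All 16 genes of the planar polarity and Fat-Dachsous list were tested, with 8 higher, 5 lower and a median of 0.17. PRICKLE2, a cytoplasmic core polarity protein, stood at 14.2, 13.5 and 12.9 CPM in WT and at 1.19, 1.75 and 1.38 CPM in ΔTUT4/7 (log2 fold change -3.26 ± 0.15, adjusted p = 1.04e-13). FZD6, a Frizzled receptor of planar polarity, fell by 1.05 and FZD3, which had the highest mean CPM of the list over the 6 libraries, by 0.92. FJX1, the human relative of the kinase that acts on Fat and Dachsous in the fly, rose by 1.30, from 5.65 ± 0.182 to 13.9 ± 1.42 CPM.

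Of 13 genes of enzymes that cut cadherins or their precursors, 4 were higher and 5 lower (median -0.06), among them the proprotein convertase PCSK6 at -1.14 ± 0.05 and the sheddase ADAM10 at -0.32 ± 0.05. Of 4 genes of the TMTC enzymes, which attach O-mannose to cadherins, 2 were higher and 1 lower, with TMTC3, which had the highest CPM, at 0.18 ± 0.05. The TMTC3 call was lost with library size alone (adjusted p = 0.275), upper-quartile factors (0.165) and limma on log2(CPM + 1) (0.279). Of 9 WAVE complex genes 4 were higher and 2 lower, and NCKAP1, with the highest CPM, was not called (285 ± 23.4 and 289 ± 4.42 CPM, adjusted p = 0.729).

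Of the tip link list of CDH23 and PCDH15, 6 of 8 genes were tested, with 2 higher and 3 lower. USH1C (harmonin), the scaffold that binds CDH23, fell from 13.2 ± 1.61 to 4.93 ± 1.04 CPM (log2 fold change -1.41 ± 0.14, adjusted p = 4e-08), and LHFPL5 had the highest CPM (log2 fold change 0.29 ± 0.09, adjusted p = 0.00819, but 0.0997 with library size alone, 0.0758 with upper-quartile factors and 0.0826 with limma on log2(CPM + 1)). Of 10 transcription factors known to act on CDH1, 8 were tested, with 3 higher and 3 lower. SNAI2, a repressor of CDH1, fell from 129 ± 4.04 to 72.3 ± 8.74 CPM (log2 fold change -0.83 ± 0.07, adjusted p = 8.63e-08). Other repressors on the list did not all follow it, and these are named after their values were seen. ZEB1 rose from 42.7 ± 2.04 to 73.7 ± 0.745 CPM (log2 fold change 0.79 ± 0.06, adjusted p = 8.17e-11) and TWIST2 by 0.71, TWIST1 fell by 0.94, SNAI1 was not called, and ZEB2 was called at 0.13 (adjusted p = 0.0387) but not with library size alone. OVOL2, an epithelial factor, was lower and held 82 counts in WT and 2 in ΔTUT4/7 (ratio 38.0, 95% counting interval 10.2 to 319).

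**Figure D5:**
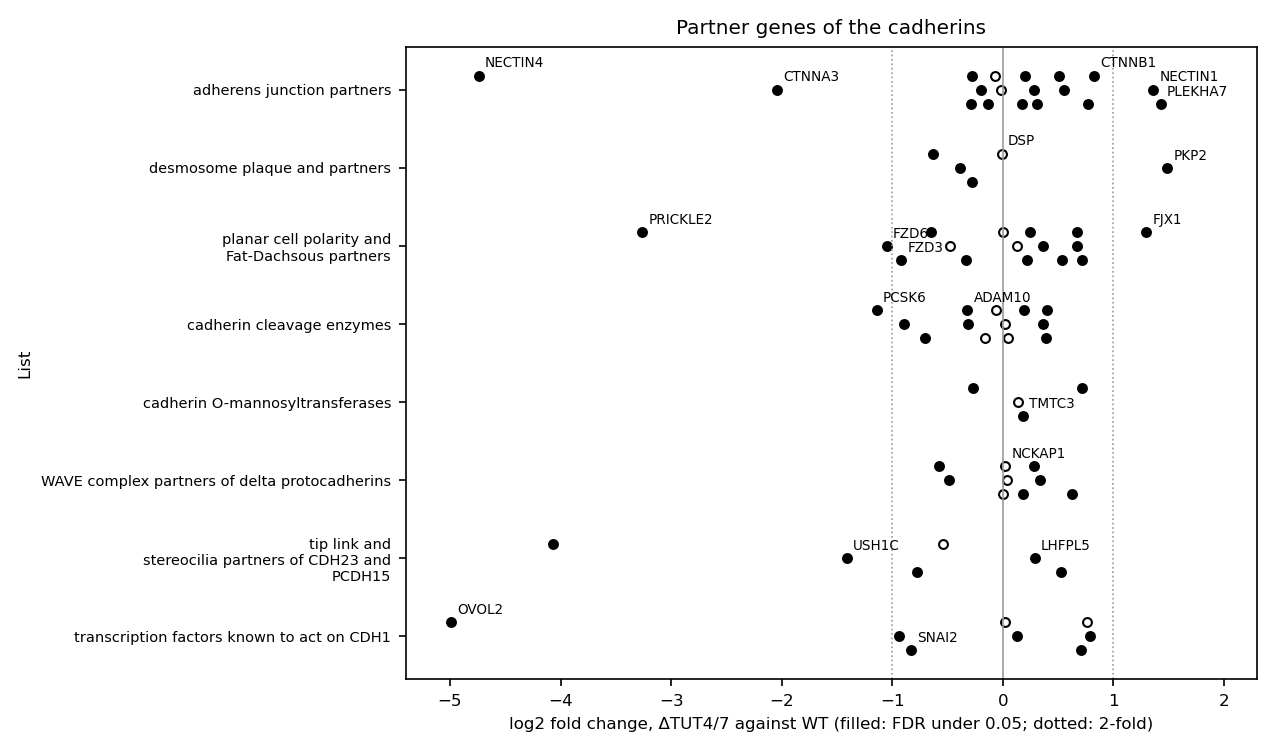
log2 fold change of each tested partner gene (x axis), ΔTUT4/7 against WT, by list (y axis), filled where the adjusted p is under 0.05. Labels mark the genes past 2-fold at FDR under 0.05 and at least 1 CPM, and the gene of highest mean CPM in each list. Points are spread vertically for visibility. The points of most lists lie on both sides of 0. NECTIN4, OVOL2, TMC2 (not labelled), PRICKLE2 and CTNNA3 lie far to the left, and PKP2, PLEKHA7, NECTIN1 and FJX1 right of the 2-fold line.

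The study measured microRNAs in other samples not used here, and let-7 is the family whose precursors TUT4 and TUT7 are best known to uridylate, so the cadherins were searched for letters complementary to its seed. The mature let-7a of RefSeq is shown with its seed, bases 2 to 8, in capitals, which the other let-7 sequences and miR-98 share in that table.
hsa-let-7a-5p: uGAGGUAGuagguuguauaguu

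The matching letters CTACCTC were present on the transcript strand of the canonical 3′ UTR in 6 of the 36 genes (16.7%), and in 1574 of 14313 tested protein-coding genes with such a UTR (11%). They occurred in 3 of 23 lower genes, 2 of 6 higher genes and 1 of 7 genes not called. The median log2 fold change was -0.45 with a site and -0.48 without. The 30 bases around each site are shown because these are the only such matches in the canonical 3′ UTRs of the family (GENCODE release 44, hg38, strand of the gene, site in capitals).
CDH1 (chr16:68834921-68834950, plus): ttgaggtgggtCTACCTCatctctgaaaat
DSC3 (chr18:30991585-30991614, minus): atcaaaacctgCTACCTCcccaagacttta
PCDH19 (chrX:100294319-100294348, minus): agtgctgaataCTACCTCatgcaaaatatt
CDH7 (chr18:65889436-65889465, plus): cagtttcacccCTACCTCccataaatcatt
CDH22 (chr20:46173825-46173854, minus): aataacagaacCTACCTCgaagagttgtga
CDH8 (chr16:61650352-61650381, minus): tctccctctgcCTACCTCacaattcaaggt

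CDH1, DSC3 and PCDH19 were lower, CDH7 and CDH22 (4 and 34 counts) were higher and CDH8 was not called. Among the largest falls, CDH1 had these letters in its canonical 3′ UTR, and CDH12, DCHS2 and FAT3 did not. Other matches to let-7 and other transcripts were not searched. Whether let-7 acts on any of these genes was not tested.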

How the data were processed

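RNA of 3 WT and 3 ΔTUT4/7 samples was sequenced after rRNA reduction. The authors aligned the reads to hg38 and counted Ensembl release 102 genes, and the submitters' processing notes name STAR 2.7.3a and Partek 10.0.22. The deposited table holds the authors' estimated counts per gene, not normalized, of which 45.2% to 50.0% per library were not whole numbers (tolerance 1e-09). Reads of overlapping or similar genes are shared by a model, and the read strand is not given in the sources used here. A second deposited table holds the authors' own comparison (p-values, FDR, fold changes and group means) and was not used.

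Estimated counts were rounded. Genes with a largest count above 12, the study's limit, were tested with edgeR 4.0.16 under R 4.3.3 (TMM factors, robust quasi-likelihood F test, group as the only term, Benjamini-Hochberg adjustment over 24031 genes). The 6 libraries held 18757228 to 33148937 counts, and untested genes held 0.0942% of all counts. CPM are counts scaled to the TMM-adjusted library size. Errors of log2 fold changes are SEs, and other ± values are SDs of 3 libraries. Ratios on 1 to 3 counts have exact 95% Poisson intervals. Lengths, GC content and 3′ UTRs came from GENCODE release 44, and promoter windows and let-7 sequences from RefSeq tables. Symbol and chromosome matched 76.2% of tested genes. With matching by position added for the rest, 99.2% had a length. Canonical 3′ UTRs were found for 14313 tested protein-coding genes. The scripts were tested on simulated data.

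Members and gene lists were chosen with earlier results of these data known. Every cadherin with a mean of at least 1 CPM in either group is named with the value in every library, as are others that were called. From each partner list, genes past 2-fold at FDR under 0.05 and at least 1 CPM are named, with the gene of highest mean CPM. Alternatives were RLE, library-size and upper-quartile scaling, DESeq2 1.42.0, limma 3.58.1 (voom, and log2(CPM + 1)), other count filters, unrounded counts, a replicate block, each library left out, a 1.5-fold minimum, neighbouring genes subtracted, and an offset for GC content and length (23839 genes).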

Additional observations from a re-analysis of the deposited data

How the results depend on the processing

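There were 18 alternatives with a test, and 18 of the 29 called cadherins kept their call in each one that included them, as did all 15 past 2-fold. CDH22, DCHS2, PCDH15 and PCDH8 were left out by the mean count of at least 50 and so had 17. Against a 1.5-fold minimum, 14 cadherins were lower in place of 23, and partner genes fell to 8 higher and 12 lower in place of 34 and 27. That test alone cost the calls of CDH24, CDH3, CDH7, CELSR1, DSC2 and PCDH12. CDH26, DSG2, PCDH10, CDH23 and FAT1 lost theirs elsewhere too. With 1 library left out, the higher cadherins stayed at 6 and the lower ones ran from 20 to 23, with 4 higher and 11 to 12 lower past 2-fold. Partner genes then ran from 31 to 35 higher and from 25 to 27 lower, TUT4 from 2.08 to 2.12 and TUT7 from -1.28 to -1.22. With neighbouring genes subtracted, TUT4 was at 1.98 and TUT7 at -1.45, and DSG2 and PCDH10 changed sign (-0.08 and 0.27). Partner genes were 24 higher and 31 lower with library size alone. With the GC content and length offset, CTNND1 (0.05, adjusted p = 0.379) and DSP (0.11, adjusted p = 0.0115) changed sign, and PCDH7 was called (0.18, adjusted p = 0.00713). The cause of these shifts was not tested. Library size alone moved the median of all genes from -0.02 to -0.13, and that of the cadherins from -0.48 to -0.60. The replicate numbers did not pair the libraries: deviations of same-numbered libraries correlated at 0.0519, -0.0115 and -0.0222 over 15575 genes. With the replicate block, 6 cadherins were higher and 23 lower. Depth limits CDH8, CDH18, CDH22, PCDH15 and DCHS2, which rest on few counts.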
